A study of Mus musculus with 6 samples.

Results

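The glutathione, glucuronosyl and sulfo transferases were followed in the distal colon of mice that lack TNFR2 and of wildtype mice. Members were all rows of the deposited table whose gene symbol begins with Gsta, Gstm, Gstp, Gstt, Gsto, Gstk, Mgst, Ugt or Sult, including rows that list several such symbols. This gave 54 of 24617 rows, which name 62 symbols: 23 rows of glutathione transferases, 13 rows of glucuronosyltransferases with 21 symbols, and 18 rows of sulfotransferases. Messenger RNA was sequenced from 3 knockout mice (TNFR2-knockout, written TNFR2-/- in the series' design text) and 3 wildtype mice, all male, of the strain C57Bl/6 and 8 weeks old, with 1 library per mouse. TNFR2 is the second receptor for tumor necrosis factor. The labels do not name the knockout construct, the litters or the cohorts. Values are in FPKM, a fragment count divided by transcript length and by library size. They were set by the authors, and because they are scaled by length, levels can be compared between genes. Library values are given below in the order of replicates 1, 2 and 3 of each genotype. Replicate numbers name the libraries, and the main fit did not treat them as pairs.

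These enzymes make up much of what is called phase II metabolism, in which a reactive or fat-soluble compound is joined to a polar group so that it can be exported. Glutathione transferases add the thiol of glutathione to electrophiles, glucuronosyltransferases (Ugt) of the endoplasmic reticulum add glucuronic acid from its UDP-bound form, and cytosolic sulfotransferases (Sult) add sulfate from the donor PAPS. They are best known from the liver, but the gut epithelium carries its own set, facing compounds from diet and bacteria.

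Many of these genes are near copies of a neighbour, so their sequences set how far a row can be read as a single gene. For each of the 62 symbols the coding sequence (GENCODE M21 annotation of GRCm38, the assembly also called mm10) was split into all words of 50 bases, the read length in the design text. In 24 of the 62, no word occurred in another annotated gene, and in 15 more than 50% of the words did. Gsta4, Gsta3, Gstm4, Gstm5, Gstm7, Gsto1, Gstt1, Gstt2, Gstk1, Mgst1, Mgst2, Mgst3, Sult1b1 and Sult1d1 shared 0%. The shared portion was 92.9% for Gsta1, 75.7% for Gsta2, 59.3% for Gstm3, 46.8% for Gstm1, 15.2% for Gstm2, 70.9% for Gstp1, 81.6% for Gstp2 and 70.6% for Gstt3. Rows of genes with shared words hold values that the authors' counting may have split between copies, and they are uncertain to that extent.

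**Figure D1:**
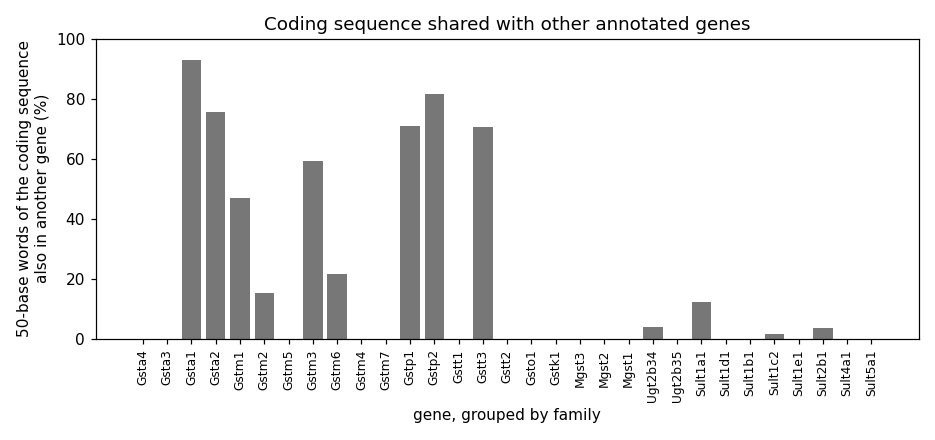
Share of the 50-base words of each coding sequence that also occur in another annotated gene, for the tested rows of a single symbol, grouped by family on the x axis and in percent on the y axis. Gsta1 stands at 92.9% and Gstp2 at 81.6%, while Gsta4, Gsta3, Gsto1 and all 3 Mgst genes stand at 0%.

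The pi-class pair on chromosome 19 shows how close such copies are. Gstp1 and Gstp2 have coding sequences of 630 bases that differ at 12 positions (98.1% identical), with a longest identical run of 300 bases. Coding bases 1 to 60 hold 6 of the 12, printed in capitals:
Gstp1: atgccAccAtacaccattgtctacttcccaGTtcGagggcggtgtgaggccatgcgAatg
Gstp2: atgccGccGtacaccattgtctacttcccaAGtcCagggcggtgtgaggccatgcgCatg

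The mu-class genes on chromosome 3 differ more. Gstm1 and Gstm3 were 89.5% identical over 654 coding bases, with a longest identical run of 112 bases, and Gstm1 and Gstm4 were 80.1% identical. Coding bases 309 to 368 are among the stretches in which 6 of the genes can be told apart, and capitals mark the 35 of 60 positions at which they are not all the same:
Gstm1: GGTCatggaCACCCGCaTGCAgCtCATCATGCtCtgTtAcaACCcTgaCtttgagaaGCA
Gstm2: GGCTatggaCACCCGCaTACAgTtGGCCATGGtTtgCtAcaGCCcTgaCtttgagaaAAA
Gstm3: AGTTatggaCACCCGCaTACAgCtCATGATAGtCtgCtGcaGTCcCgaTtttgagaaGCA
Gstm4: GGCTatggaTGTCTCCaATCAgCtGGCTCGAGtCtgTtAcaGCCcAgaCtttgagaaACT
Gstm6: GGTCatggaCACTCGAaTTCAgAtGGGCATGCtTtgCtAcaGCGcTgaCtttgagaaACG
Gstm7: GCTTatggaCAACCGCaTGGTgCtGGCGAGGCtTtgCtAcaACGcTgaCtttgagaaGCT

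The Ugt1a genes on chromosome 1 are a different case, since each has its own first exon and all are spliced to the same last exons. The deposited table gives them as 1 row with 8 symbols. Their coding sequences of 1584 to 1605 bases share the last 737 bases exactly, so the row holds 1 value for 8 enzymes with different substrates. The 60 bases around the point where the shared end begins are printed for 5 of them, with the bases before that point in capitals and the shared end in lower case. The capitals of Ugt1a2 are the same as those of Ugt1a5, and those of Ugt1a6a the same as those of Ugt1a6b, so this stretch does not tell such pairs apart:
Ugt1a1: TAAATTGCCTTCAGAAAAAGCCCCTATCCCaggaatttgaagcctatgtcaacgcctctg
Ugt1a2: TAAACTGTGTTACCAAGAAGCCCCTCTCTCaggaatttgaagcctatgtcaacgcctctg
Ugt1a6a: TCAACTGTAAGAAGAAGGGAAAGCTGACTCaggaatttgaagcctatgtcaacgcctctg
Ugt1a9: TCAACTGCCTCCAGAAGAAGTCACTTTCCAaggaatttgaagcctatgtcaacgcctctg
Ugt1a10: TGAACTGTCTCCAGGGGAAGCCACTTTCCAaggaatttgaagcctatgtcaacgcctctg

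The labels were checked first. Tnfrsf1b, the gene of TNFR2, was at 1.17, 1.12 and 0.924 FPKM in the knockout libraries, against 7.49, 8.20 and 8.17 FPKM in the wildtype libraries, a log2 difference of -2.11 ± 0.084 (SE, adjusted p = 7.1e-05, limma with Benjamini-Hochberg adjustment). Its knockout mean was 13.5% of the wildtype mean. Summed markers of surface colonocytes, among them Car1, Aqp8 and Krt20, reached 5550 to 8101 FPKM in the 6 libraries. Of 8 hepatocyte markers, Fgb and Fgg were listed at 0 in every library and Alb did not exceed 0.519 FPKM, while Ttr reached 34.7 to 48.6 FPKM. Markers of tissue beside the gut varied far more: skin keratinocyte markers summed to 164, 655 and 1173 FPKM in the knockout libraries and 1257, 590.1 and 1333 FPKM in the wildtype libraries, and skeletal muscle markers to 143, 1793 and 1324 FPKM in the knockout libraries and 7931, 2433 and 2859 FPKM in the wildtype libraries. Knockout library 1 was the lowest of the 6 in both sums. Relative depth was estimated from the steps that single fragments make in low FPKM values, and the deepest library had 1.497 times that of the shallowest.

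Of the 54 rows, 32 averaged 0.5 FPKM or more across libraries and were tested. All 32 had means of at least 1 FPKM, 25 of at least 10 FPKM and 7 of at least 100 FPKM. Glutathione transferases were expressed almost throughout, with 21 of 23 rows tested, against 8 of 18 sulfotransferase rows and 3 of 13 glucuronosyltransferase rows. The other 22 rows stayed at or below 0.646 FPKM in every library. They are Gsto2, Gstt4, Sult1c1, Sult2a1 to Sult2a7, Sult3a1, Sult6b1, Ugt2a1 with Ugt2a2 in 1 row, Ugt2a3, Ugt2b1, Ugt2b36, Ugt2b37, Ugt2b38, Ugt2b5, Ugt3a1, Ugt3a2 and Ugt8a. In 10 of them, Sult1c1, all 7 Sult2a genes, Sult3a1 and Ugt3a2, every library was listed at 0. The Sult2a enzymes, which sulfate steroids and bile acids in liver, form a block of 7 rows on chromosome 7 (mm10, 13623966 to 14492926).

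The highest level was that of Mgst3, a membrane-bound transferase and peroxidase, at 723 FPKM over the 6 libraries. It was followed by Gsto1 at 300.2 FPKM, Gstp1 at 277 FPKM, Gstm1 at 232 FPKM and Mgst2 at 128 FPKM. These 5 rows made up 59.2% of the summed FPKM of all members. Along the order of the 15 highest rows, the library ranges of neighbours did not overlap at 2 places, between Mgst3 and Gsto1 and between Gstm1 and Mgst2. At the other places the neighbouring ranges overlapped, although Gstp1 was above Gstm1 and Mgst1 above Ugt2b34 within each of the 6 libraries. Gsto1 was above Gstp1 in 4 of 6 libraries, and Gstp2 above Mgst1 in 2 of 6, so these pairs have no firm order. Below them came Ugt2b34 at 95.1 FPKM, Gstm2 at 94.3 FPKM, Sult1a1 at 93.4 FPKM, Sult1d1 at 76.9 FPKM, Gsta4 at 70.1 FPKM and the Ugt1a row at 66.6 FPKM.

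**Figure D2:**
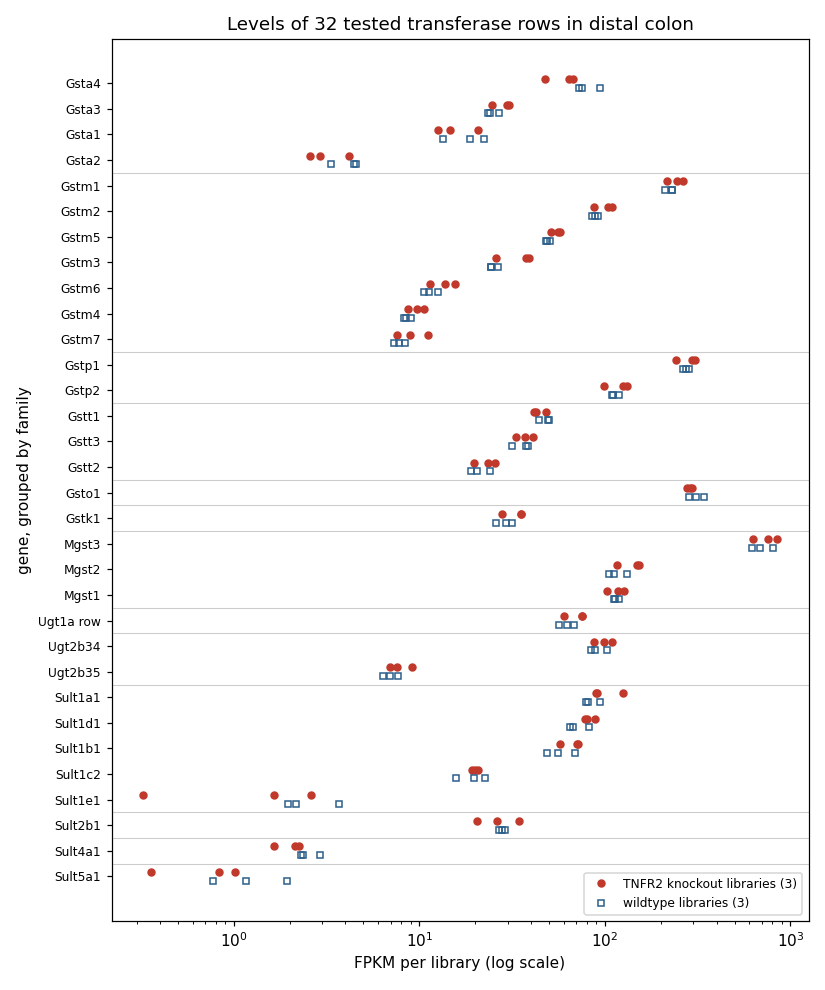
FPKM of the 32 tested rows in each library on a log x axis, with genes grouped by family on the y axis and each point 1 library of a knockout or wildtype mouse. Mgst3 lies at 618 to 844 FPKM, and Sult1e1, Sult5a1 and Sult4a1 are at the low end with values below 4 FPKM.

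Summed over all members, transferase RNA came to 3012, 2535 and 3063 FPKM in the knockout libraries and 2558, 2920.2 and 2746 FPKM in the wildtype libraries, or 2870.4 ± 291 FPKM in knockout and 2741 ± 181 FPKM in wildtype (SD, n = 3 each). The sums overlap, with knockout library 2 lowest and knockout libraries 3 and 1 highest. By kind, glutathione transferases summed to 2391 ± 251 FPKM in knockout and 2312 ± 139 FPKM in wildtype, glucuronosyltransferases to 177 ± 20.03 FPKM in knockout and 162 ± 15.6 FPKM in wildtype, and sulfotransferases to 302 ± 29.6 FPKM in knockout and 268 ± 29.9 FPKM in wildtype. In each of the 3 sums the libraries of both genotypes overlapped.

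Loss of TNFR2 was not accompanied by a detectable change in any single transferase at this number of mice. Of the 32 tested members, 0 passed an adjusted p of 0.05 in limma with Benjamini-Hochberg adjustment over 14564 rows, where 42 rows, or 0.288%, passed. At an unadjusted p under 0.05 there were 2 members (6.25%), Gsta4 and Gstm3, against 16.2% of all tested rows, and adjusted p ranged from 0.274 to 0.960. All 3 knockout libraries lay on 1 side of all 3 wildtype libraries for 3 members (9.38%), against 21.8% of all tested rows. Of the 3, Gstm5 lay above (9.3% of all tested rows did), and Gsta4 and Sult4a1 lay below (12.5% of all tested rows). In the authors' deposited table, 0 of the 54 members were marked significant, of 252 rows in all, and the smallest q of a tested member was 0.751.

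Sizes were likewise close to those of other genes. On the scale of log2(FPKM + 1), on which all differences here are given, 25 of 32 members (78.1%) lay within 0.25 of 0, as did 78.2% of all tested rows, and the extremes were -0.60 for Sult1e1 and 0.41 for Gstm3. The 95% interval of the difference, not adjusted for the number of rows, stayed inside a 1.5-fold change of FPKM + 1 for 25 members. It did so for 11705 of all 14564 tested rows. The interval stayed inside a 2-fold change of FPKM + 1 for all members but Sult1e1, and for 13653 of all tested rows. For low rows this scale understates the change in FPKM. The Sult5a1 difference was -0.39, and -0.74 with a pseudocount of 0.1. Averages were higher in knockout for 23 members (71.9%) and lower for 9, against 42.6% higher among all tested rows. The median difference was 0.11 over the members and -0.027 over all tested rows. With a single library left out, the median of the members ran from 0.042 without wildtype library 1 and 0.046 without knockout library 1 to 0.19 without knockout library 2, and the number with a higher mean from 19 without knockout library 3 to 24 without knockout library 2. Quantile normalization of the libraries left 23 members higher and 9 lower, while the share of all rows with a higher knockout mean became 56.9%. Sums of skin and muscle markers were highest in wildtype libraries 1 and 3 and lowest in knockout library 1. With these left out together, 9 members were higher and 23 lower, and their median was -0.055. Knockout library 3, close to wildtype library 1 in the skin sum, was kept. Only wildtype library 2 then stood for wildtype. Its median deviation from each gene's mean over the members, 0.044, was the highest among wildtype libraries. Knockout library 1, left out, had the highest of all libraries, 0.16. The sign of the median of -0.055 cannot be separated from this choice of libraries.

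**Figure D3:**
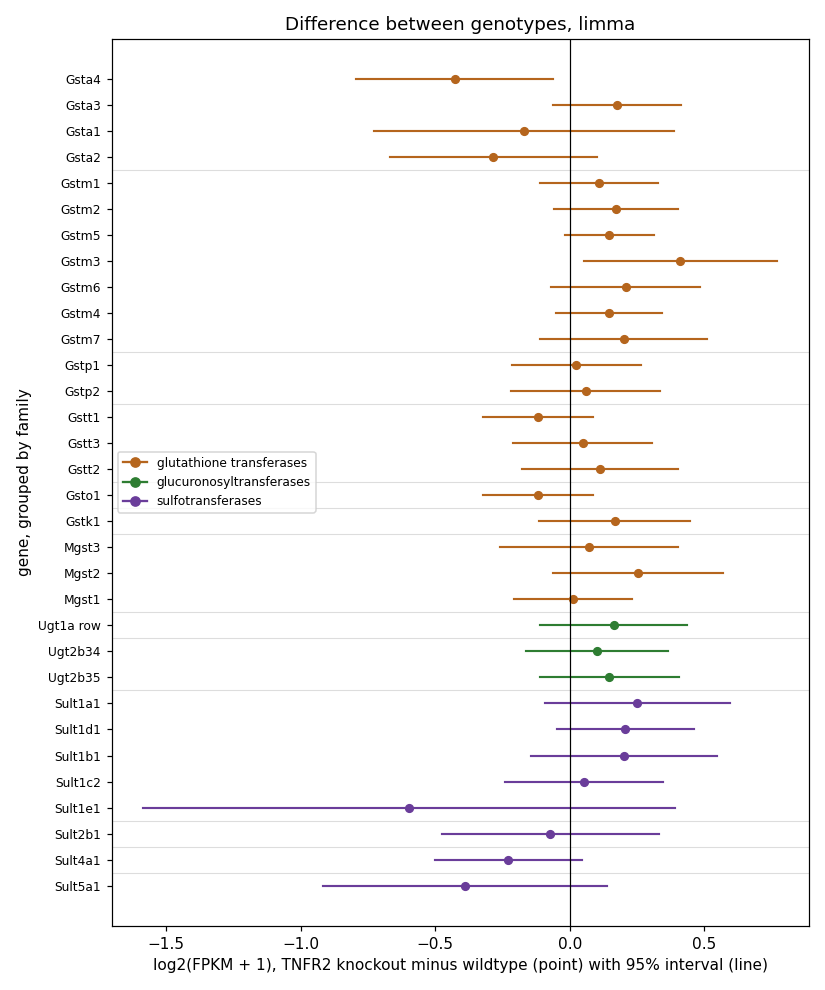
Difference in log2(FPKM + 1), TNFR2 knockout minus wildtype, for the 32 tested rows, with points at the limma estimate and lines for the unadjusted 95% interval. The interval does not include 0 for Gsta4 at -0.43 and Gstm3 at 0.41, and none of the rows passed the adjusted threshold.

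The alpha class, which reduces lipid hydroperoxides and conjugates products of lipid peroxidation, held 1 of the 2 members with an unadjusted p under 0.05, and its mean was lower in knockout. Gsta4, whose enzyme is known for removing hydroxynonenal, was at 47.8, 67.1 and 64.4 FPKM in the knockout libraries, against 74.96, 72.6 and 93.6 FPKM in the wildtype libraries. Knockout library 1 was lowest and wildtype library 3 highest, and the groups did not overlap. Gsta4 averaged 59.8 ± 10.4 FPKM in knockout and 80.4 ± 11.5 FPKM in wildtype (SD, n = 3 each), a difference of -0.43 with a 95% interval of -0.79 to -0.061, at an adjusted p of 0.274 in limma with Benjamini-Hochberg adjustment. The authors' deposited table gives a log2 fold change of -0.41, with p = 0.0351 and q = 0.751. Without knockout library 1 the difference was -0.28, and with wildtype libraries 1 and 3 left out as well it was -0.14. In bulk tissue, fewer cells of a type and less RNA per cell cannot be told apart.

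The other alpha genes did not follow a common direction. Gsta3, the highest of them, had 29.7, 24.6 and 30.3 FPKM in the knockout libraries, against 23.4, 26.9 and 24.0 FPKM in the wildtype libraries, with knockout library 2 among the wildtype values. Gsta1 had 14.7, 12.6 and 20.8 FPKM in the knockout libraries, against 13.5, 22.3 and 18.7 FPKM in the wildtype libraries, and the groups overlapped. Gsta2 averaged 3.23 ± 0.834 FPKM in knockout and 4.12 ± 0.670 FPKM in wildtype, a difference of -0.28 ± 0.16 (SE). Gsta1 and Gsta2 share most of their coding words with each other and with annotated copies. The summed alpha level was 94.8, 107 and 119.6 FPKM in the knockout libraries and 115, 126 and 141 FPKM in the wildtype libraries, with overlapping groups.

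In the mu class, whose enzymes conjugate epoxides and other electrophiles, 7 of 7 genes had a higher mean in knockout, by 0.11 to 0.41, and 0 of 7 passed the test. All 7 lie in 168 kb of chromosome 3 (mm10, 107877083 to 108044859) in the order Gstm5, Gstm7, Gstm6, Gstm3, Gstm2, Gstm1 and Gstm4, with mean levels of 8.54 to 232 FPKM. The direction held for 7 of 7 under both other scalings and with any single library left out, and for 5 of 7 without wildtype libraries 1 and 3 and knockout library 1. Among all tested rows, 42.6% had a higher knockout mean, and 56.9% after quantile normalization. The signs of the 7 genes come from the same 6 libraries and are not independent. Gstm1, Gstm2, Gstm3 and Gstm6 share 50-base words with other genes, and Gstm4, Gstm5 and Gstm7 do not.

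Gstm3 had the largest difference of them, at 39.0, 25.9 and 37.4 FPKM in the knockout libraries, against 24.2, 26.4 and 24.5 FPKM in the wildtype libraries. Knockout libraries 1 and 3 were above every wildtype library, and knockout library 2 was among them. The means of Gstm3 were 34.1 ± 7.14 FPKM in knockout and 25.04 ± 1.21 FPKM in wildtype (SD, n = 3 each), a difference of 0.41 with a 95% interval of 0.053 to 0.77, at an adjusted p of 0.279 in limma with Benjamini-Hochberg adjustment. In the authors' deposited table Gstm3 has a log2 fold change of 0.44, with p = 0.0438 and q = 0.834. With a single library left out the difference ran from 0.31 without knockout library 1 to 0.59 without knockout library 2. The adjusted p (limma) ran from 0.0687 without knockout library 2 to 0.618 without wildtype library 1. Without wildtype libraries 1 and 3 and knockout library 1 the difference was 0.23. Because 59.3% of its coding words occur in Gm8834, Gstm2-ps1, Gstm1 or other genes, the row may hold fragments from them.

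Gstm5, which shares none of its words, was the only tested member with every knockout library above every wildtype library, at 55.7, 51.2 and 57.3 FPKM in the knockout libraries, against 50.8, 48.7 and 48.4 FPKM in the wildtype libraries. The distance between the highest wildtype and the lowest knockout library was small, and the difference was 0.15 ± 0.070 (SE, adjusted p = 0.349, limma with Benjamini-Hochberg adjustment). Gstm1, the most abundant mu enzyme, was at 264, 217 and 244 FPKM in the knockout libraries, against 229, 210.5 and 229.8 FPKM in the wildtype libraries. Gstm2 followed at 109, 87.5 and 104 FPKM in the knockout libraries, against 88.6, 91.8 and 85.0 FPKM in the wildtype libraries. In both, knockout library 2 lay within the wildtype range and knockout libraries 1 and 3 above it. Gstm4, Gstm6 and Gstm7 differed by 0.15, 0.21 and 0.20. Summed over the class, mu RNA was 504, 409 and 475 FPKM in the knockout libraries and 419.8, 407 and 415 FPKM in the wildtype libraries, so 3 close wildtype values stood against a wider knockout range.

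The pi pair showed almost no difference. Gstp1, the main glutathione transferase of many epithelia, was at 293, 242 and 306 FPKM in the knockout libraries, against 265, 284 and 274 FPKM in the wildtype libraries, and its difference was 0.025 with a 95% interval of -0.22 to 0.26. Gstp2 was lower in level, at 125, 99.0 and 132 FPKM in the knockout libraries, against 109.6, 119 and 110.3 FPKM in the wildtype libraries. In both genes knockout library 2 was lowest and knockout library 3 highest, so the knockout libraries enclosed all wildtype values. Within the coding sequence the copies can be told apart only at the 12 positions counted above, and their untranslated parts were not compared.

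Among the theta enzymes, Gstt1, which acts on small halogenated compounds, was at 48.2, 41.6 and 42.8 FPKM in the knockout libraries, against 49.4, 44.3 and 50.3 FPKM in the wildtype libraries. Gstt3 had 41.0, 33.3 and 37.0 FPKM in the knockout libraries, against 31.5, 38.7 and 37.4 FPKM in the wildtype libraries, and Gstt2 had 25.6, 19.8 and 23.4 FPKM in the knockout libraries, against 18.9, 24.1 and 20.4 FPKM in the wildtype libraries. The groups overlapped for all 3, with differences of -0.12, 0.049 and 0.11. Gstt4, in the same stretch of chromosome 10 (mm10, 75774121 to 75837343), was under the filter, so neighbours there ranged from near 0 to 46.1 FPKM.

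Gsto1, which reduces dehydroascorbate and methylated arsenic, was at 289, 279 and 294 FPKM in the knockout libraries, against 284, 312 and 343 FPKM in the wildtype libraries. Its 2 highest values were wildtype, the groups overlapped, and the difference was -0.12 with a 95% interval of -0.32 to 0.086. Gsto2, its close relative, stayed under the filter at 0.579, 0.646 and 0.416 FPKM in the knockout libraries, against 0.300, 0.295 and 0.350 FPKM in the wildtype libraries, and was not tested. Gstk1, the transferase of mitochondria and peroxisomes, was at 35.1, 27.7 and 35.1 FPKM in the knockout libraries, against 29.3, 31.7 and 25.8 FPKM in the wildtype libraries, with overlapping groups.

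The membrane-bound enzymes carried the largest amount of RNA. Mgst3 was at 753, 628 and 844 FPKM in the knockout libraries, against 618, 809 and 688 FPKM in the wildtype libraries, and the difference of 0.072 had a 95% interval of -0.26 to 0.40. The lowest value was that of wildtype library 1 and the highest that of knockout library 3. Mgst2, which like Mgst3 is related to the leukotriene-forming enzyme Ltc4s, was at 149, 116 and 152 FPKM in the knockout libraries, against 105, 132 and 112 FPKM in the wildtype libraries, a difference of 0.25 ± 0.13 (SE, adjusted p = 0.384, limma with Benjamini-Hochberg adjustment). Mgst1, the microsomal and outer mitochondrial form, was the most level of the 3, at 127, 103 and 118 FPKM in the knockout libraries, against 118, 112 and 114 FPKM in the wildtype libraries. For all 3 the groups overlapped.

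The glucuronosyltransferases were carried by 3 rows. The Ugt1a row, which joins the bilirubin enzyme Ugt1a1 with phenol enzymes such as Ugt1a6a, was at 75.7, 60.1 and 75.5 FPKM in the knockout libraries, against 56.9, 68.2 and 62.8 FPKM in the wildtype libraries. Knockout libraries 1 and 3 were above all wildtype libraries and knockout library 2 was within their range, with a difference of 0.16 ± 0.12 (SE). That difference was 0.10 without wildtype library 1 and 0.27 without knockout library 2. Which of the 8 first exons the fragments came from cannot be read from this row. Ugt2b34, of the family that takes steroids and bile acids, was at 109, 87.5 and 99.2 FPKM in the knockout libraries, against 84.3, 102 and 88.3 FPKM in the wildtype libraries, and Ugt2b35 averaged 7.90 ± 1.13 FPKM in knockout and 7.01 ± 0.631 FPKM in wildtype. Both overlapped between genotypes, with differences of 0.10 and 0.15. With a single library left out these ran from 0.028 to 0.19 for Ugt2b34 and from 0.048 to 0.22 for Ugt2b35, lowest without knockout library 1 and highest without knockout library 2.

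The Ugt2b genes lie beside the Sult1 genes on chromosome 5 (mm10, 86889769 to 87591611), in 12 rows over 702 kb. Of these rows 5 were tested, Ugt2b34, Ugt2b35, Sult1b1, Sult1d1 and Sult1e1, and 7 were under the filter. The row of Ugt2a1 and Ugt2a2, enzymes known from olfactory tissue, was at 0.0376, 0.0984 and 0.0274 FPKM in the knockout libraries, against 0.0534, 0.0770 and 0.0496 FPKM in the wildtype libraries. Ugt8a, which makes the galactosylceramide of myelin, was also under the filter.

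Among sulfotransferases, Sult1a1, the phenol sulfotransferase, had the highest level, at 126, 90.8 and 89.6 FPKM in the knockout libraries, against 81.2, 93.8 and 79.3 FPKM in the wildtype libraries. Knockout library 1 stood above the other 5, which overlapped, and the difference of 0.25 was 0.093 without that library. Sult1d1, which acts on catecholamines in mice, was at 88.2, 78.4 and 80.2 FPKM in the knockout libraries, against 64.5, 82.3 and 67.5 FPKM in the wildtype libraries. Sult1b1, which takes thyroid hormones and phenols, was at 70.3, 57.4 and 71.7 FPKM in the knockout libraries, against 48.6, 69.2 and 56.2 FPKM in the wildtype libraries. Wildtype library 2 lay among the knockout libraries for both, and the differences were 0.21 ± 0.11 and 0.20 ± 0.15 (SE). Without wildtype library 1 they were 0.14 for Sult1d1 and 0.083 for Sult1b1, and without wildtype library 2 they were 0.31 for Sult1d1 and 0.33 for Sult1b1. Sult1c2 averaged 19.97 ± 0.744 FPKM in knockout and 19.4 ± 3.43 FPKM in wildtype.

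Sult1e1, the estrogen sulfotransferase, was named after its values were seen, as the member with the lowest difference. It was at 0.325, 2.61 and 1.65 FPKM in the knockout libraries, against 3.68, 1.96 and 2.17 FPKM in the wildtype libraries. The groups overlapped, and knockout library 1 was far below the rest. The difference of -0.60 ± 0.40 (SE, adjusted p = 0.489, limma with Benjamini-Hochberg adjustment) had a 95% interval of -1.59 to 0.39. Knockout library 1 also had the lowest sum of skin keratinocyte markers, as given above, and of sebaceous gland markers, which was 4.77, 43.1 and 35.9 FPKM in the knockout libraries and 77.0, 23.0 and 67.3 FPKM in the wildtype libraries. The part of such tissue in the value of Sult1e1 was not tested.

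Sult2b1, which sulfates cholesterol and pregnenolone and is well known from skin, was at 26.2, 20.6 and 34.5 FPKM in the knockout libraries, against 26.9, 29.0 and 27.9 FPKM in the wildtype libraries. Knockout libraries 2 and 3 were the lowest and the highest, and the groups overlapped. The skin marker sums given above were lowest in knockout library 1, and the part of skin in Sult2b1 was not tested. Sult4a1, a form known from brain, was at 1.66, 2.24 and 2.15 FPKM in the knockout libraries, against 2.92, 2.31 and 2.36 FPKM in the wildtype libraries, with all knockout libraries below all wildtype libraries by a small distance (difference -0.23 ± 0.12, SE, adjusted p = 0.374, limma with Benjamini-Hochberg adjustment). Enteric glia and neuron markers summed to 28.9, 40.7 and 38.1 FPKM in the knockout libraries and 52.2, 34.2 and 44.7 FPKM in the wildtype libraries. Whether such cells have a part in Sult4a1 was not tested. Sult5a1 was at 0.359, 1.02 and 0.829 FPKM in the knockout libraries, against 1.95, 0.774 and 1.16 FPKM in the wildtype libraries.

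The level of the tested members also varied from library to library within each genotype. For each gene the deviation of a library from that gene's mean over the 6 libraries was taken, and the median over the 32 tested members was 0.16, -0.12 and 0.11 in the knockout libraries and -0.11, 0.044 and -0.062 in the wildtype libraries. The genotype means, 0.051 in knockout and -0.044 in wildtype, were closer to each other than the standard deviation of 0.12 within genotypes. Over the 7 mu genes the median deviation was 0.22, -0.10 and 0.14 in the knockout libraries and -0.11, -0.086 and -0.12 in the wildtype libraries. The means, 0.085 in knockout and -0.11 in wildtype, were farther apart than the standard deviation of 0.12 within genotypes. That comparison is not a test, and 0 of the 7 mu genes passed the adjusted threshold. The mu class is the lone family set out in this way, from the same libraries that gave its direction above. Over the 8 sulfotransferases the median deviation was -0.010, 0.016 and -0.036 in the knockout libraries and -0.10, 0.067 and 0.026 in the wildtype libraries. This median did not show the pattern of the whole set, but the summed FPKM of sulfotransferases did. The sums were 333, 274 and 300 FPKM in the knockout libraries and 246, 302 and 257 FPKM in the wildtype libraries. They were highest in knockout libraries 1 and 3 and wildtype library 2. Knockout library 1 was the highest of the 6 for 14 members and knockout library 3 for 9, while wildtype library 1 was the lowest for 14 and knockout library 2 for 7. The median over surface colonocyte markers was 0.23, -0.18 and 0.14 in the knockout libraries and -0.28, 0.19 and -0.12 in the wildtype libraries, so the same 3 libraries were above 0 for these markers and for the whole set. Fibroblast markers, at -0.33, -0.0094 and -0.33 in the knockout libraries and 0.43, -0.019 and 0.27 in the wildtype libraries, were lowest in knockout libraries 1 and 3, close to 0 in knockout library 2 and wildtype library 2, and above 0 in wildtype libraries 1 and 3. The part of the epithelial share in the transferase values was not tested.

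**Figure D4:**
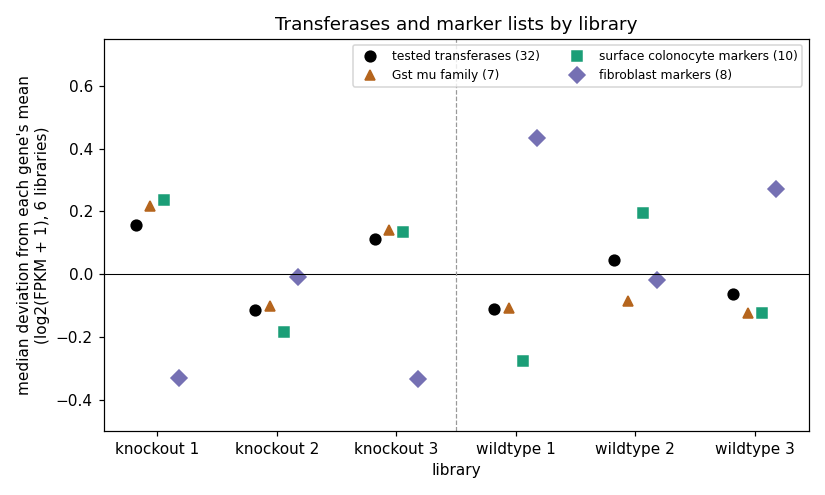
Median deviation in log2(FPKM + 1) from each gene's mean over 6 libraries (y axis) for the 32 tested transferases, the 7 mu genes, 10 surface colonocyte markers and 8 fibroblast markers, with knockout libraries left of the dashed line and wildtype libraries right of it. Transferases and colonocyte markers are both above 0 in knockout libraries 1 and 3 and wildtype library 2. Fibroblast markers are below -0.3 in knockout libraries 1 and 3 and above 0.2 in wildtype libraries 1 and 3.

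Promoters were read for motifs of factors known to drive these families. RefSeq (GRCm38.p6) gave 64 windows of 250 bases before the start for 54 of the 62 symbols. For 54 of the 64 windows, the bases after the start were found near the beginning of a GENCODE transcript of the gene. Searched on both strands, the antioxidant response core TGACNNNGC, bound by Nrf2, occurred in windows of 4 of 54 member genes (7.41%), against 11.5% of 27025 genes. The core GCGTG of the xenobiotic response element, bound by the Ah receptor, occurred in 10 (18.5%), against 30.9%. The letters GTTAAT, one arm of the HNF1 site, occurred in 13 (24.1%), against 7.49%. Among the 13, only Gsta3, Sult1a1 and Sult1d1 are tested rows of a single symbol. Ugt1a1, Ugt1a6a, Ugt1a9 and Ugt1a10 belong to the Ugt1a row. Sult2a3, Sult2a4, Sult2a5, Sult2a6, Ugt2a3 and Ugt3a1 were under the filter. Matches of different motifs overlapped in 1 window, that of Gstm5, where an antioxidant core and a xenobiotic core share bases. These are matches of letters and not sites shown to be used, and near copies such as the Sult2a genes count several times.

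The 3 windows below are printed because Gsta3 is the member with both an antioxidant core and an HNF1 arm, Mgst1 the membrane-bound member with an antioxidant core, and Ugt1a10 a window with a pair of HNF1 arms. All are on the plus strand, capitals mark the antioxidant core and the HNF1 arms, and the last base lies next to the start. The Gsta3 window is chr1:21240335-21240584, with the HNF1 arm 149 and the antioxidant core 121 bases before the start. This RefSeq start of Gsta3 was not found in a GENCODE transcript, so its distances rest on RefSeq alone. The Mgst1 window is chr6:138140277-138140526, with the antioxidant core read on the minus strand 56 bases before the start. The Ugt1a10 window is chr1:88055161-88055410, with HNF1 arms 100 and 71 bases before the start.
Gsta3: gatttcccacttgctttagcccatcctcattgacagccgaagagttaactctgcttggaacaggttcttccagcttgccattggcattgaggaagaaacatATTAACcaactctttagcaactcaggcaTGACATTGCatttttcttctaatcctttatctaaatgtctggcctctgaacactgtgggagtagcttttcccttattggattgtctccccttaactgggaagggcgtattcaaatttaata
Mgst1: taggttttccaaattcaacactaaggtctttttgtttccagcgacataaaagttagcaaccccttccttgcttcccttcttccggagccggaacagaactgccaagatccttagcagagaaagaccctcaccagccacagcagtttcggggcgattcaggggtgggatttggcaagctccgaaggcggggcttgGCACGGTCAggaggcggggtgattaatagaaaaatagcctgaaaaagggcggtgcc
Ugt1a10: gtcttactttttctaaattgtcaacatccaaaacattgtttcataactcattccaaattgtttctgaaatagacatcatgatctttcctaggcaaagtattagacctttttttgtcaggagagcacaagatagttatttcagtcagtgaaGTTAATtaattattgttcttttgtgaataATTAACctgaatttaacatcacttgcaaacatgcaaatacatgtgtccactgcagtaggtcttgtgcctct

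The genes around the transferases, which supply their donors, remove or export their products and control them, were described from 9 lists with 160 genes, of which 145 rows were tested. Among these, 0 were higher in knockout and 1 was lower at an adjusted p of 0.05 in limma with Benjamini-Hochberg adjustment, and 26 (17.9%) had an unadjusted p under 0.05, against 16.2% of all tested rows. The medians of the lists lay between -0.12 and 0.047. The gene that fell was Hmox1, the heme oxygenase that is a standard target of Nrf2 and is also strong in macrophages. Hmox1 was at 4.13, 5.20 and 4.98 FPKM in the knockout libraries, against 10.5, 9.40 and 9.13 FPKM in the wildtype libraries, a log2 difference of -0.89 ± 0.10 (SE, adjusted p = 0.019, limma with Benjamini-Hochberg adjustment). All knockout libraries were below 6 FPKM and all wildtype libraries above 9 FPKM. The call was lost with any of knockout libraries 2 and 3 and wildtype libraries 1 and 3 left out (adjusted p 0.0529 to 0.115), with differences of -0.94 to -0.84. Markers of macrophages summed to 401, 410.4 and 280.3 FPKM in the knockout libraries and 544, 477 and 507 FPKM in the wildtype libraries. Of these, 8 of 9 tested had an unadjusted p under 0.05, and all 9 were lower in knockout. This was not particular to macrophages. All tested markers of fibroblasts (8), endothelium (7), adipocytes (6) and smooth muscle (8) were lower too. The unadjusted p was under 0.05 for 8 of the fibroblast, 4 of the endothelium, 4 of the adipocyte and 0 of the smooth muscle markers. In contrast, 9 of 10 surface colonocyte and 6 of 6 goblet markers were higher. The part of any of these cells in Hmox1 was not tested.

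Other antioxidant and Ah receptor targets did not pass, in a list with 13 means higher and 12 lower of 25 tested. Ces1d, a carboxylesterase, averaged 17 ± 1.71 FPKM in knockout and 23.1 ± 1.79 FPKM in wildtype (SD, n = 3 each, as for all means here, adjusted p = 0.181, limma). Tiparp, an Ah receptor target, averaged 4.803 ± 0.364 FPKM in knockout and 6.38 ± 0.364 FPKM in wildtype (adjusted p = 0.184, limma). Most abundant was the carbonyl reductase Cbr1, with 235 ± 30.01 FPKM in knockout and 211 ± 24.1 FPKM in wildtype. Taldo1, of the pentose phosphate route, had 182 ± 18.7 FPKM in knockout and 175 ± 5.37 FPKM in wildtype. Both of these overlapped between genotypes.

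In the list of regulators, 16 of 27 tested means were higher in knockout and 0 passed. The bile acid receptor Nr1h4 averaged 23.9 ± 2.13 FPKM in knockout and 17.2 ± 3.27 FPKM in wildtype (adjusted p = 0.234, limma). For the nuclear receptor Nr5a2 the means were 8.76 ± 0.627 FPKM in knockout and 6.71 ± 0.838 FPKM in wildtype (adjusted p = 0.234, limma). All knockout libraries were above all wildtype libraries for both, as for 9.3% of all tested rows. Genes of these lists were named partly for a small unadjusted p, which favours such separation. The xenobiotic receptor Nr1i2 averaged 30.5 ± 3.24 FPKM in knockout and 24.4 ± 2.73 FPKM in wildtype (adjusted p = 0.274, limma), with overlapping libraries. The gut factor Cdx1 had the highest level, 185 ± 34.4 FPKM in knockout and 170.0 ± 21.5 FPKM in wildtype. Hnf4a, which many liver and gut enzymes depend on, was next with 150.5 ± 25.3 FPKM in knockout and 145 ± 22.2 FPKM in wildtype.

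None of the genes that supply the donors passed the test. For glutathione synthesis and recycling, 8 of 20 tested means were higher and 12 lower. Chac1, which degrades glutathione, was at 0.224, 0.732 and 1.25 FPKM in the knockout libraries, against 3.99, 1.39 and 3.74 FPKM in the wildtype libraries. All knockout libraries lay below all wildtype libraries, as for 12.5% of all tested rows. The difference was -1.19 ± 0.35 (SE, adjusted p = 0.246, limma with Benjamini-Hochberg adjustment). Slc3a2, the heavy chain of the cystine carrier, averaged 28.5 ± 1.14 FPKM in knockout and 34.3 ± 1.42 FPKM in wildtype (adjusted p = 0.212, limma). Anpep, a peptidase of the same route, averaged 7.37 ± 0.804 FPKM in knockout and 8.97 ± 0.846 FPKM in wildtype (adjusted p = 0.293, limma). All knockout libraries were below all wildtype libraries for both genes, as for 12.5% of all tested rows. Pgd, which regenerates NADPH, was highest in the list with 103 ± 10.9 FPKM in knockout and 95.3 ± 10.6 FPKM in wildtype, and the glutaredoxin Glrx had 91.2 ± 22.03 FPKM in knockout and 82.1 ± 1.38 FPKM in wildtype.

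Ugdh, the enzyme that makes UDP-glucuronic acid, averaged 82.4 ± 8.30 FPKM in knockout and 70.2 ± 4.31 FPKM in wildtype, with 0 of 10 genes of its list passing and 0 at an unadjusted p under 0.05. Gpi1, a glycolytic isomerase, was highest there with 209.8 ± 9.50 FPKM in knockout and 214 ± 6.29 FPKM in wildtype. Papss1, which makes the sulfate donor, averaged 109.8 ± 7.68 FPKM in knockout and 96.5 ± 9.89 FPKM in wildtype. In its list 7 means were higher and 6 lower of 13 tested. The anion exchanger Slc26a3, also among the colonocyte markers, was the most abundant of them with 282 ± 54.2 FPKM in knockout and 257 ± 63.5 FPKM in wildtype. Suox, sulfite oxidase, averaged 4.68 ± 0.541 FPKM in knockout and 7.13 ± 1.10 FPKM in wildtype (adjusted p = 0.190, limma). The protein tyrosine sulfotransferases, which act on secreted proteins and not on small molecules, were lower in mean. Tpst1 averaged 13.3 ± 0.465 FPKM in knockout and 16.7 ± 2.40 FPKM in wildtype and Tpst2 10.95 ± 1.62 FPKM in knockout and 14.2 ± 1.44 FPKM in wildtype (adjusted p = 0.271 for Tpst1 and 0.269 for Tpst2, limma). The sulfate transporter Slc26a2, named after its values were seen, averaged 108 ± 14.7 FPKM in knockout and 86.2 ± 10.3 FPKM in wildtype (adjusted p = 0.288, limma). Every knockout library of Slc26a2 was above every wildtype library, as for 9.3% of all tested rows.

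Among other glutathione enzymes 5 of 18 means were higher, 13 lower and 0 passed. The peroxidase Gpx2 was the most abundant, with 337 ± 77.5 FPKM in knockout and 289.6 ± 47.3 FPKM in wildtype. Gpx1 had 281 ± 26.3 FPKM in knockout and 290.0 ± 12.9 FPKM in wildtype. The next genes make lipid mediators, some of them with glutathione. The prostaglandin D synthase Hpgds averaged 6.12 ± 0.884 FPKM in knockout and 4.59 ± 0.735 FPKM in wildtype (adjusted p = 0.279, limma). Alox5ap, which serves leukotriene synthesis, averaged 8.93 ± 1.22 FPKM in knockout and 12.7 ± 1.23 FPKM in wildtype (adjusted p = 0.196, limma). The prostaglandin E synthase Ptges averaged 6.24 ± 0.842 FPKM in knockout and 7.52 ± 0.368 FPKM in wildtype (adjusted p = 0.297, limma). For removal of conjugates, 0 of 10 passed and 0 had an unadjusted p under 0.05. Acy1, an aminoacylase, was at 31.2 ± 1.67 FPKM in knockout and 30.9 ± 3.11 FPKM in wildtype, and the beta-glucuronidase Gusb at 19.1 ± 0.772 FPKM in knockout and 20.7 ± 1.59 FPKM in wildtype.

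Exporters of conjugates had 7 of 13 means higher and 0 passing. Abcc3, which exports glucuronides to the blood side, was at 29.8, 22.8 and 31.4 FPKM in the knockout libraries, against 19.2, 24.8 and 21.8 FPKM in the wildtype libraries, with knockout library 2 inside the wildtype range (adjusted p = 0.305, limma). Abcc6 averaged 1.14 ± 0.0994 FPKM in knockout and 0.702 ± 0.160 FPKM in wildtype (adjusted p = 0.244, limma). Abcc1, an exporter of glutathione conjugates, averaged 7.97 ± 0.721 FPKM in knockout and 9.24 ± 0.417 FPKM in wildtype (adjusted p = 0.305, limma). Abcb1a, the drug efflux pump, was highest with 138 ± 15.9 FPKM in knockout and 122 ± 14.6 FPKM in wildtype. Of the other conjugating enzymes 3 of 9 means were higher, 6 lower and 0 passed. The arylamine acetyltransferase Nat2 averaged 14.8 ± 1.56 FPKM in knockout and 12 ± 1.23 FPKM in wildtype (adjusted p = 0.279, limma). The methyltransferase Nnmt averaged 4.45 ± 0.980 FPKM in knockout and 6.50 ± 0.520 FPKM in wildtype (adjusted p = 0.234, limma). Acsm3, which couples medium-chain acids to coenzyme A, was the most abundant with 82.2 ± 11.3 FPKM in knockout and 73.3 ± 8.97 FPKM in wildtype.

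**Figure D5:**
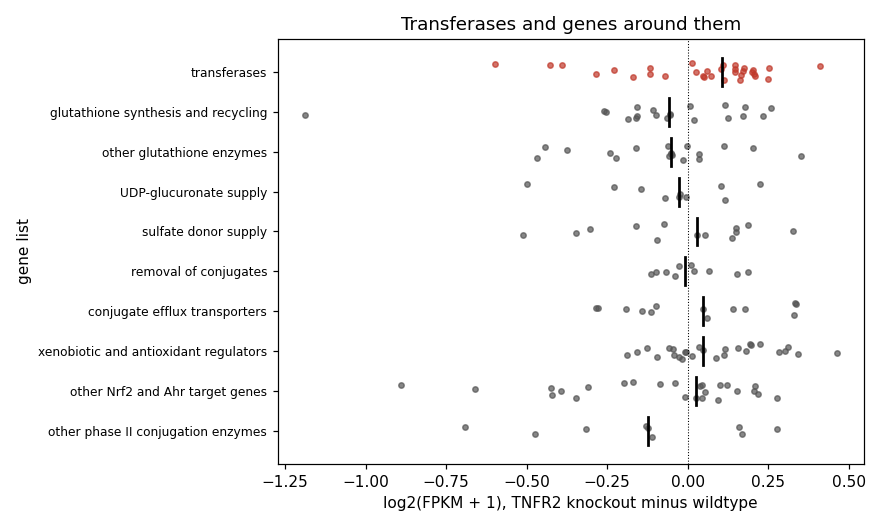
Difference in log2(FPKM + 1), TNFR2 knockout minus wildtype, for each tested transferase (red, top) and each tested gene of 9 lists of surrounding genes (grey), with a black bar at each median. The transferase median is 0.11, the list medians lie between -0.12 and 0.047, and Hmox1 at -0.89 is the lone row past the adjusted threshold.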

How the data were processed

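Messenger RNA of 3 TNFR2-knockout and 3 wildtype distal colons was sequenced at an average depth of 50M paired-end reads of 50 bp, per the labels' protocols and the series' design text. The authors aligned reads with Tophat2 and Bowtie2, assembled them with Cufflinks and compared genotypes with Cuffdiff 2, per the design text. Per the submitters' processing notes, mm10 was used. Not given in the sources used here are tool versions, gene annotation, strand handling and normalization across libraries. The deposited values are FPKM per gene and library, per the file headers. They are not counts, and the depth of each library is not given in them. The log2 fold change was deposited by the authors as a score, with placeholders where a group is at 0, beside p-values and q-values deposited by the authors.

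Rows with a gene name and a mean of at least 0.5 FPKM over 6 libraries (14564 rows) were tested with limma 3.58.1 in R 4.3.3, with trend and robust moderation, on log2(FPKM + 1), which understates changes of low genes. P-values were adjusted over all tested rows by the Benjamini-Hochberg method and called at 0.05. The procedure was tested on simulated data in which the noise of each gene was independent. That test does not cover shifts shared by many genes of a library, such as those of tissue content. Rows without a gene name, 6.13% of rows with 17.7% of the summed FPKM, were left out. Members and lists were chosen with earlier results of these data known. Named members were those with an unadjusted p under 0.05, the 3 most abundant of each family and rows of several symbols, and of the other lists called genes, up to 3 genes with the smallest unadjusted p under 0.05 and the 2 most abundant, of which 1 is not reported here. Alternatives changed the pseudocount, filter, scaling, moderation, replicate block, rows tested or libraries used.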

Additional observations from a re-analysis of the deposited data

How the results depend on the processing

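The count of transferases past the adjusted threshold was 0 under each of 15 alternatives (other pseudocount, filters, scalings, moderation, replicate block, no small RNA genes, each library left out, 3 libraries left out together). Over 26 members, 364 of 389 alternative values kept their sign and 25, of 15 members, did not. The smallest adjusted p among them was 0.0687, of Gstm3. The count of called rows over all genes was 42, and it was 24 with the replicate block, 22 without small RNA genes, 111 without wildtype libraries 1 and 3 and knockout library 1, and 21 to 70 with a single library left out. Same-numbered libraries correlated at -0.37, -0.34 and 0.21 after the mean of each genotype was removed. These values cannot show whether replicate numbers pair the samples, because litters and cohorts are not named. Of the surrounding genes, 1 was called, against 0 with the replicate block and 0 to 1 with a single library left out. Hmox1 had an adjusted p of 0.231 with the replicate block. The cause of these shifts was not tested.

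Without wildtype libraries 1 and 3 and knockout library 1, differences of the opposite sign were -0.017 for the Ugt1a row, -0.15 for Mgst3, -0.14 for Gstt3, -0.16 for Gstt2, -0.061 for Gstp1, -0.057 for Gstp2, -0.069 for Ugt2b35, -0.14 for Ugt2b34, -0.11 for Sult1b1, -0.054 for Sult1d1, -0.020 for Gstk1, -0.024 for Mgst1, -0.055 for Sult1a1 and 0.12 for Sult5a1, with 2 knockout libraries and 1 wildtype library left, so that the lone wildtype library is assumed to vary like the others. With a single library left out, the sign varied over -0.027 to 0.19 for Mgst3, -0.040 to 0.12 for Gstt3, -0.042 to 0.13 for Gstp1, -0.023 to 0.18 for Gstp2, -0.057 to 0.097 for Mgst1 and -0.26 to 0.10 for Sult2b1. FPKM keeps no read totals, and 3 mice a group limit the precision, as the intervals show.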
